A study of Mus musculus with 6 samples.

Results

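Integrin and laminin subunits, the genes for the main receptors that attach cells to basement membrane and for the chains of its main cell-binding protein, were examined in muscle stem cells of adult mice, grown in culture and given a pulse of BMP6 or of vehicle. Members were taken by gene symbol (integrin alpha and beta chains, laminin alpha, beta and gamma chains), 1 probe set per gene. This gave 37 of the 20163 genes measured, 26 integrins and 11 laminins, and each of the 37 had a single probe set. The BMP6 group was 3 cultures given 100 ng/ml BMP6 for 1 h, and the vehicle group was 3 cultures given only the solvent for 1 h. Cells of both groups came from female C57BL/6J mice 6 to 8 weeks old. They had grown for 2 days on Matrigel, a basement membrane extract, and had then been kept 6 h without serum in 200 ng/ml ALK3-Fc, a soluble BMP receptor that binds free BMP. Nothing in the labels says whether the mice of a group were littermates. By source name the BMP6 cultures came from mice 1, 2 and 3 and the vehicle cultures from mice 1, 2 and 2, although the vehicle cultures too are numbered replicates 1, 2 and 3. P-values measure the spread between these cultures.

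Each integrin is a pair of 1 alpha and 1 beta chain, and the alpha chain largely sets which matrix protein is bound. Laminins are trimers of an alpha, a beta and a gamma chain that assemble into the sheet of the basement membrane. In skeletal muscle the alpha7 and beta1 chains form the principal laminin receptor, and the stem cell lies under the basement membrane of its fibre, between laminin and the fibre's surface. BMP6 signals through SMAD1, SMAD5 and SMAD9, and BMP target genes such as Id1 are known to respond within an hour.

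All values are log2 expression after RMA, the authors' array normalization, so that a difference of 1 is a doubling. The arrays come with no detection call. As a stand-in, the mean of each member over the 6 arrays was set beside the means of 1221 genes for olfactory, vomeronasal and taste receptors, which muscle cells are not known to use. The 99th percentile of these receptors was 6.24, their median 3.69 and their highest value 7.11. A lower value can mean fewer cells that make an RNA or less of it per cell, which cannot be told apart in bulk RNA. Since probe sets differ in affinity, this gives a rough floor for each member and no order of abundance among members. Muscle genes were high, with means of 12.2 for Myod1, 10.1 for Myf5 and 8.86 for Pax7, and 12 of 14 muscle markers lay above the floor. None of 10 endothelial markers did. Of the other cell types that dissociated muscle can hold, 3 of 10 immune, 5 of 10 fibro-adipogenic, 3 of 8 pericyte and smooth muscle, and 5 of 8 Schwann cell markers lay above it. The last include Ncam1, which myoblasts also make. The pulse acted: Id1 stood at 11.29, 11.27 and 11.35 in BMP6 replicates 1, 2 and 3, against 9.64, 9.61 and 9.92 in the vehicle replicates.

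Of the 37 members, 19 lay above the floor, where 53.3% of all genes did, and 18 lay at or below it. The 19 were 12 of the 26 integrins and 7 of the 11 laminins. All 4 laminin receptor chains (Itga3, Itga6, Itga7 and Itgb4) and Itgb1 were among them. So were 3 of the 4 alpha chains that bind RGD sequences, the motif in fibronectin and vitronectin (Itga5, Itgav and Itga2b). Of the 4 beta chains other than beta1 that pair with alphav, 3 were above the floor (Itgb5, Itgb6 and Itgb8). Only Itga10 of the 4 collagen receptor chains was above the floor, and neither Itga4 nor Itga9. None of the 7 leukocyte chains was. Among laminin chains, Lama2, Lama5, Lamb1, Lamb2, Lamb3, Lamc1 and Lamc3 were above it, and Lama1, Lama3 and Lama4 were among those that were not.

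**Figure D1:**
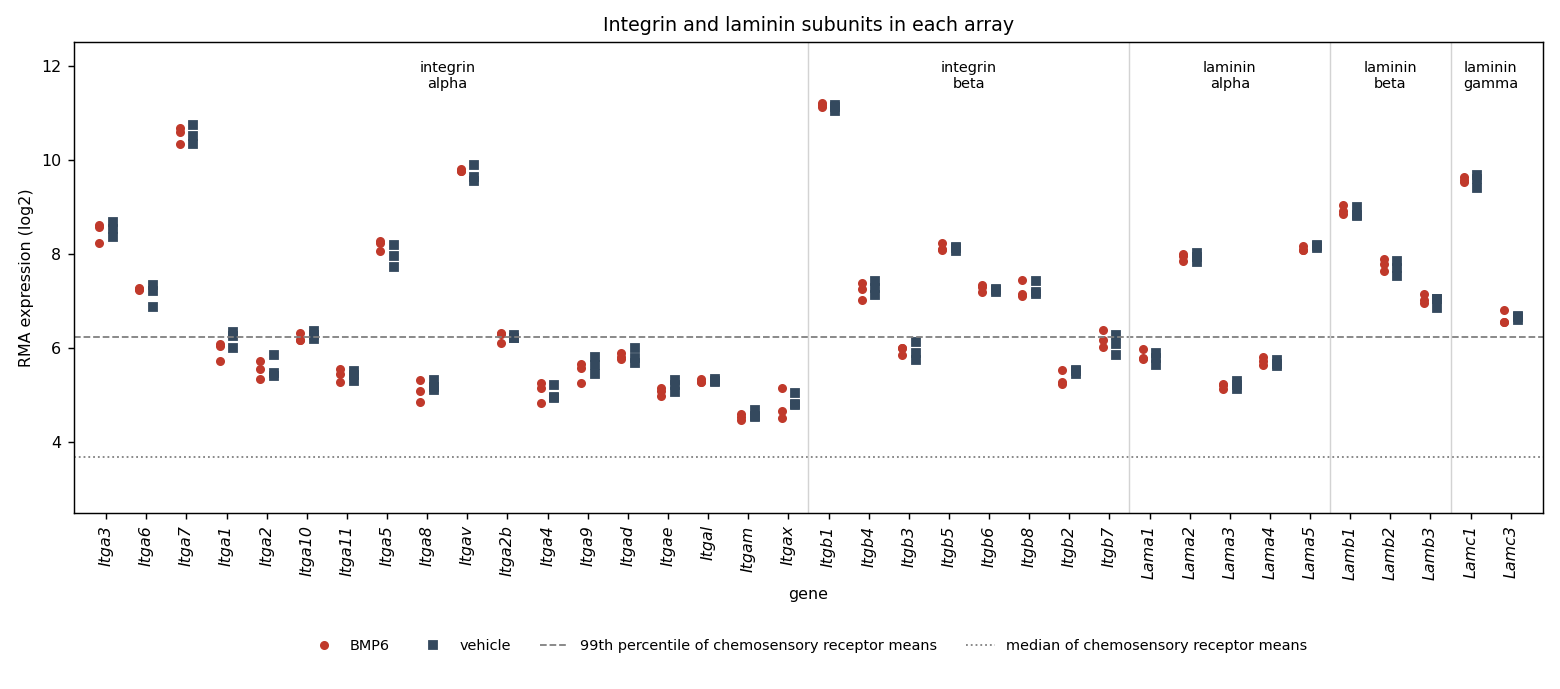
Log2 RMA expression (vertical axis) of the subunits (horizontal axis, grouped by chain) in the 3 BMP6 arrays (red circles) and the 3 vehicle arrays (dark squares). The dashed line is the 99th percentile of chemosensory receptor means (6.24) and the dotted line their median (3.69); 19 subunits have a mean above the dashed line, and the BMP6 and vehicle points overlap for every gene shown.

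Among the laminin receptor chains, Itga7 stood at 10.33, 10.68 and 10.59 in BMP6 replicates 1, 2 and 3, against 10.35, 10.51 and 10.74 in the vehicle replicates. Its partner Itgb1, the beta chain shared by most matrix-binding integrins, stood at 11.20, 11.16 and 11.12 in BMP6 and at 11.12, 11.03 and 11.17 in vehicle. Both genes were far above the floor in each of the 6 arrays. Itga3, which with beta1 also binds laminin, had 8.58, 8.62 and 8.23 in BMP6 and 8.69, 8.53 and 8.35 in vehicle. Itga6 had 7.28, 7.23 and 7.25 in BMP6 and 7.33, 6.88 and 7.21 in vehicle. The alpha6 chain pairs with beta1 or with beta4, the chain best known from the hemidesmosomes of epithelia. Itgb4 was measured at 7.38, 7.26 and 7.03 in BMP6 and at 7.42, 7.27 and 7.13 in vehicle. For these 5 genes the treatments overlapped, with the lowest values of Itga3 and Itgb4 in replicate 3 of both treatments.

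Receptors for fibronectin and other RGD proteins formed the next group. Itgav, the alpha chain with the most beta partners, had 9.77, 9.77 and 9.80 in BMP6 and 9.63, 9.55 and 9.89 in vehicle. Itga5, which with beta1 is the classical fibronectin receptor, had 8.05, 8.23 and 8.27 in BMP6 and 7.73, 7.96 and 8.18 in vehicle. Each BMP6 value of Itga5 was above the vehicle value of the same number, but the groups overlapped, since BMP6 replicate 1 lay below vehicle replicate 3. Itgb5, a vitronectin receptor chain, had 8.11, 8.09 and 8.23 in BMP6 and 8.14, 8.07 and 8.15 in vehicle. Itgb6 had 7.34, 7.19 and 7.29 in BMP6 and 7.23, 7.18 and 7.26 in vehicle, and Itgb8 had 7.15, 7.10 and 7.44 in BMP6 and 7.16, 7.19 and 7.42 in vehicle. With alphav these 2 chains are known to release TGF-beta from its latent form.

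The other 2 integrins above the floor lay close to it, at means of 6.25 for Itga10 and 6.24 for Itga2b. The collagen receptor chain Itga10 had 6.33, 6.17 and 6.17 in BMP6 and 6.37, 6.28 and 6.19 in vehicle, and the platelet chain Itga2b had 6.32, 6.30 and 6.12 in BMP6 and 6.22, 6.21 and 6.28 in vehicle. In each case some arrays fell below the floor, and neither mean exceeded the 99th percentile of the olfactory receptors alone. Of the collagen receptor chains at or below the floor, Itga1 had 6.03, 6.09 and 5.71 in BMP6 and 6.01, 6.34 and 6.25 in vehicle, while Itga2 and Itga11 averaged 5.56 and 5.42 over the 6 arrays. Itga4, a receptor chain for VCAM1 and fibronectin, averaged 5.06, and Itga9, one for tenascin-C, 5.56, both below the floor. The genes of these ligands lay above it, at 9.11 for Vcam1, 11.03 for Fn1 and 11.1 for Tnc. Itga8 averaged 5.15 and Itgb3, a partner of alphav and of the platelet chain, 5.94. The leukocyte chains Itgal, Itgam, Itgax, Itgad, Itgae, Itgb2 and Itgb7 averaged between 4.56 (Itgam) and 6.13 (Itgb7), in cultures where the pan-leukocyte gene Ptprc averaged 4.66 and the macrophage genes Lyz2 and Cd68 averaged 4.60 and 6.60.

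Laminin alpha chains divided between Lama2 and Lama5 on one side and Lama1, Lama3 and Lama4 on the other. Lama2, the alpha chain of the laminin of muscle basement membrane, stood at 7.95, 7.84 and 8.00 in BMP6 and at 7.94, 7.84 and 8.02 in vehicle. The broadly expressed Lama5 stood at 8.09, 8.17 and 8.09 in BMP6 and at 8.20, 8.14 and 8.18 in vehicle. The alpha1 chain is that of the laminin of the tumour from which Matrigel is made, and Lama1 averaged 5.81 in the cells, below the floor. Lama3, an epithelial chain, and Lama4, a chain of vessels and peripheral nerve, averaged 5.20 and 5.70. The arrays measured RNA of the cells, so protein supplied by the Matrigel is not seen.

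Lamb1, the usual beta chain, had 9.04, 8.91 and 8.85 in BMP6 and 9.00, 8.83 and 8.82 in vehicle. Lamb2, the beta chain enriched at the neuromuscular synapse, had 7.63, 7.80 and 7.90 in BMP6 and 7.53, 7.86 and 7.71 in vehicle. Lamc1, the gamma chain of most laminins, had 9.63, 9.54 and 9.57 in BMP6 and 9.59, 9.40 and 9.67 in vehicle. The chains measured above the floor thus included an alpha, a beta and a gamma chain of the muscle type. Lamb3 had 6.97, 7.15 and 7.02 in BMP6 and 7.04, 7.05 and 6.86 in vehicle. Its known partners in epithelial laminin include Lama3, which averaged 5.20, below the floor. Lamc3, a gamma chain of nerve and some basement membranes, had 6.55, 6.82 and 6.55 in BMP6 and 6.65, 6.68 and 6.59 in vehicle. Lamb3 and Lamc3 were above the 99th percentile of the receptors in each array, but their means did not exceed the highest receptor.

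BMP target genes often carry the letters GGCGCC, a GC-rich element that SMAD1 and SMAD5 complexes bind in promoters such as that of Id1, so promoters of the members were read for it. RefSeq windows of 300 bases (250 before to 50 after a transcript's start, GRCm38.p6) were found for 23 of the 37 members, 26 windows in all. The element reads the same on both strands and was the only motif searched; it was chosen with the results of these data known. It occurred in 3 of the 26 windows (11.5%), against 11.9% of all 32851 windows. Of the 17 genes called with BMP6 (below), 10 had 1 window each, and 4 of the 10 held it (Ccn1, Dlx2, Dusp1 and Nfkbia). Id1 was not among these 4, and whether it was among the 10 genes with a window is not given here. Sequence outside the 300 bases was not read. The 3 member windows are shown because they carry, in genes measured above the floor, the letters associated with BMP targets. They lie at chr8:128685404-128685703 on the + strand for Itgb1, chr2:180225810-180226109 on the - strand for Lama5 and chr12:31265043-31265342 on the + strand for Lamb1, and are written 5′ to 3′ with the element in capitals.
Itgb1: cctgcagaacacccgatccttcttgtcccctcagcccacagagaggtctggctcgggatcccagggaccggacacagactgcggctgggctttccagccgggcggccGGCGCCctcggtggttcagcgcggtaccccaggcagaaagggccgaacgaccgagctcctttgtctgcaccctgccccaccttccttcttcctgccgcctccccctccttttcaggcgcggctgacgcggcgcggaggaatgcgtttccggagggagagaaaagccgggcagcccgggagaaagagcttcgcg
Lama5: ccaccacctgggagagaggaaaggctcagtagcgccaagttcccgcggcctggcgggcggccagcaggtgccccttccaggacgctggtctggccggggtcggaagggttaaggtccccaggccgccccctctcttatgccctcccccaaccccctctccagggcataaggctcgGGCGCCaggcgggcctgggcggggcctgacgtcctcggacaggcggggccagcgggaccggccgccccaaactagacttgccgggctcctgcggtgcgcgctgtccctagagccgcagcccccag
Lamb1: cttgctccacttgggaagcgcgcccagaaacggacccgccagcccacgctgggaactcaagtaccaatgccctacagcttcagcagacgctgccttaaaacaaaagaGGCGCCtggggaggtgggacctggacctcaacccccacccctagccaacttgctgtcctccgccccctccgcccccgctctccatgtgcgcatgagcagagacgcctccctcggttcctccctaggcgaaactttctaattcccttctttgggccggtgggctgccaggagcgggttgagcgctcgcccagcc
A match of 6 letters is a description of the sequence and not a binding site. The log2 fold changes of these 3 genes with BMP6 were 0.05 for Itgb1 (SE 0.07), -0.05 for Lama5 (SE 0.07) and 0.05 for Lamb1 (SE 0.09).

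No integrin or laminin gene was called higher or lower after 1 h of BMP6. In limma's moderated test, 0 of the 37 had an adjusted p under 0.05, and 17 of all 20163 genes (0.0843%) were called, all higher. At an unadjusted limma p under 0.05 there were also 0 members, against 3.17% of all genes, 283 higher and 356 lower. For none of the 37 were the 2 groups apart, against 7.71% of all genes. With so few genes called in all, a count of 0 among 37 is near what the background share gives, and the sizes and intervals say more than the count.

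The log2 fold changes of the members ran from -0.25 to 0.23, with a median of 0.0046 (-0.0013 over all genes), and 19 of the 37 were positive. By chain, the medians were -0.02 for the 18 integrin alpha chains, 0.03 for the 8 integrin beta chains and 0.03 for the 11 laminins. Each of the 37 intervals (95%, from the moderated test) lay within a 1.5-fold change in either direction. Their outermost ends were 0.697-fold on the low side (Itga1) and 1.41-fold on the high side (Itga5), and Itgax had the largest SE, 0.149 on the log2 scale. For comparison, Smad7 and Id1 differed by 1.72 (SE 0.08) and 1.58 (SE 0.09) on the log2 scale. Differences of dim probe sets are compressed on this scale, so the intervals of the 18 members at or below the floor bear on the probe signal and not on the transcript. Without 1 array the same bound held for 35 to 37 members, the lowest count being that without BMP6 replicate 1.

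**Figure D2:**
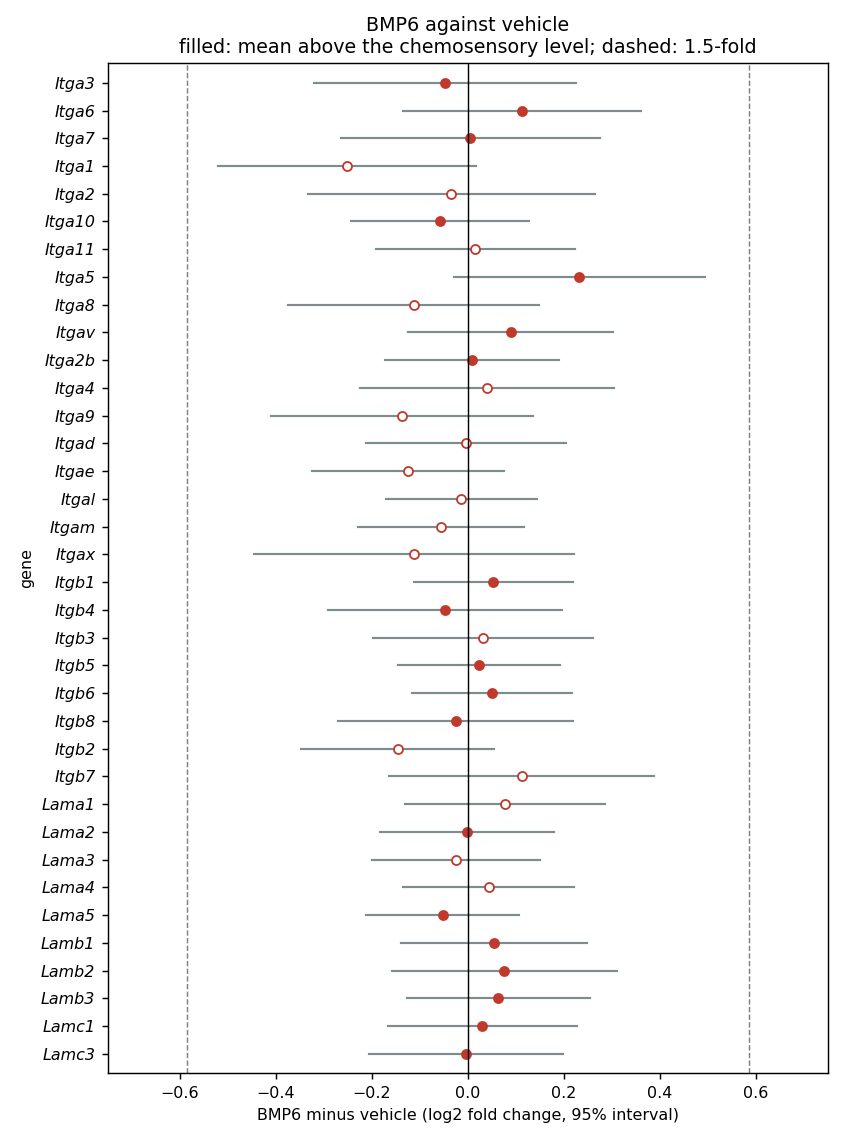
BMP6 minus vehicle for the subunits (log2 fold change, horizontal axis; 1 gene per row), with 95% intervals of limma's moderated test over 3 arrays a group. Filled points are genes with a mean above the chemosensory level, the dashed lines mark a 1.5-fold difference either way, and every interval shown lies between them and crosses 0.

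For the principal laminin receptor, Itga7 averaged 10.54 ± 0.18 in BMP6 and 10.53 ± 0.20 in vehicle (SD, n = 3 each), at 1.00-fold (95% interval 0.832 to 1.21). Itgb1 averaged 11.16 ± 0.04 in BMP6 and 11.11 ± 0.07 in vehicle, at 1.04-fold (0.925 to 1.16). The intervals of both genes include 1 and end well short of the change of Id1. Lama2 averaged 7.93 ± 0.08 in BMP6 and 7.93 ± 0.09 in vehicle, at 0.999-fold (0.881 to 1.13). Lamc1 averaged 9.58 ± 0.05 in BMP6 and 9.55 ± 0.14 in vehicle, at 1.02-fold (0.891 to 1.17).

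Itga5 and Itga1 had the lowest p-values of the members. Itga5 averaged 8.19 ± 0.12 in BMP6 and 7.96 ± 0.23 in vehicle (SD, n = 3 each), which is 0.23 higher in BMP6 with SE 0.12 (limma adjusted p = 1, or 0.0764 before adjustment). Within replicates 1, 2 and 3 it was higher in BMP6 by 0.33, 0.28 and 0.09. With the replicate number as a block its limma adjusted p was 0.753 (0.0138 before adjustment). Itga1 averaged 5.95 ± 0.20 in BMP6 and 6.20 ± 0.17 in vehicle, a difference of -0.25 with SE 0.12 (limma adjusted p = 1, or 0.0636 before adjustment). Its differences within replicates were 0.03, -0.25 and -0.53, which do not share a sign, and its mean is below the floor. No member passed over all genes with the block (lowest adjusted p = 0.753), where 29 genes did.

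Signs shared by the 3 pairs were found for 8 members, against 25.6% of all genes. Itga5, Itgb6, Lama1 and Lamb1 were higher in BMP6 in each pair, and Itga8, Itga10, Itgam and Itgb4 were lower. Apart from Itga5, whose log2 fold change is given above, these ran from -0.11 for Itga8 to 0.08 for Lama1. A share of 8 in 37 is near that of all genes, slightly below it.

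Genes that work with integrins and laminins gave the same count. Of 36 genes for the focal adhesion and its link to actin, 0 were called, and 1 had an unadjusted limma p under 0.05: Parvb, an actin-binding partner of integrin-linked kinase, at a log2 fold change of 0.27 (SE 0.12). After it came Kank2 (0.16, SE 0.07), which binds talin, Actn4 (0.22, SE 0.11), an actin cross-linker, and Nedd9 (-0.15, SE 0.08), a docking protein. Parvb had 8.73, 8.87 and 8.97 in BMP6 and 8.36, 8.82 and 8.60 in vehicle, and its groups overlapped. Of 35 matrix ligands and basement membrane genes other than laminins, 0 were called and 0 had an unadjusted p under 0.05. The 4 with the lowest p were the fibrinogen chain Fgg (0.20, SE 0.09), Icam2 (-0.20, SE 0.10), a leukocyte integrin ligand, Edil3 (-0.16, SE 0.08), an RGD protein, and the basement membrane collagen Col15a1 (-0.12, SE 0.07). Fgg, Icam2 and Edil3 averaged below the floor.

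Of 34 non-integrin laminin receptors and integrin partners, 0 were called and 2 had an unadjusted limma p under 0.05. Plaur, the urokinase receptor, which associates with integrins, had 10.01, 9.91 and 9.95 in BMP6 and 9.89, 9.76 and 9.67 in vehicle (log2 fold change 0.19, SE 0.08), and its groups did not overlap. Sgcz, a sarcoglycan, had 4.88, 4.85 and 4.74 in BMP6 and 5.07, 5.11 and 4.95 in vehicle (-0.22, SE 0.08), values below the floor. They were followed by the tetraspanin Cd151, a partner of laminin-binding integrins (0.09, SE 0.07), and by Utrn, the dystrophin relative utrophin (0.09, SE 0.08). Dag1, which encodes dystroglycan, the main laminin receptor of muscle that is not an integrin, averaged 9.53 and had a log2 fold change of 0.01 (SE 0.11). The groups did not overlap for 7 of the 105 genes of these 3 lists in the higher and 6 in the lower direction, where 7.71% of all genes did not. Of the named genes these were Kank2, Actn4, Fgg, Plaur and Cd151 (higher) and Nedd9, Icam2, Edil3, Col15a1 and Sgcz (lower). Over the 105 genes the median log2 fold change was 0.02, and each of the 105 intervals lay within 1.5-fold. At an unadjusted limma p under 0.05 there were 2 of the 105 in the higher and 1 in the lower direction. That is near the share of all genes, 3.17%.

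**Figure D3:**
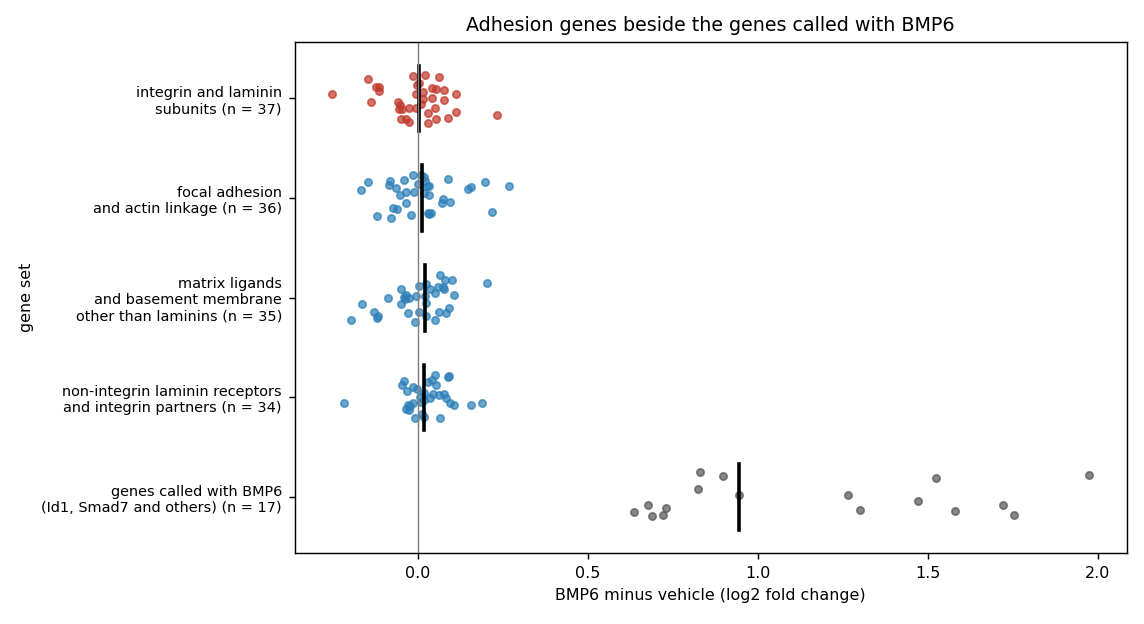
BMP6 minus vehicle (log2 fold change, horizontal axis) of each gene in the subunit set, in the 3 lists of adhesion genes and, at the bottom, in the 17 genes called with BMP6. Points are genes, spread vertically at random within a row, and black bars are medians; the subunits lie between -0.25 and 0.23.

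Some integrin chains had values that went together in the BMP6 and vehicle cultures of the same number. The SD of a member over the 6 arrays ran from 0.03 (Itgal) to 0.24 (Itgax), and the range between the means of replicates 1, 2 and 3 had a median of 0.18 over the members, against 0.15 over all genes. A limma F test of the replicate number, in a fit with treatment, called 79 of all genes (0.392%) and 0 of the 37 members. At an unadjusted p under 0.05 there were 8 members, 21.6%, against 14.0% of all genes: Itga2, Itga3, Itga5, Itga7, Itga8, Itgb4, Itgb8 and Lamb2. The lowest adjusted p was that of Itga2 (0.195). When only the 10081 genes with a mean above the median of all genes were fitted, 5 of the 17 members among them passed: Itga3 (limma adjusted p = 0.0263), Itga5 (0.0397), Itgb4 (0.0433), Itgb8 (0.0435) and Itga7 (0.0459). In that fit 663 genes passed, or 6.58%. The calls by replicate number therefore differed with the fit. With all genes fitted and an intensity trend in the prior, no member passed. Itga3 then had the lowest adjusted p of a member (limma F test, 0.063).

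Itga3 averaged 8.63, 8.58 and 8.29 over the 2 cultures with number 1, 2 and 3, and Itgb4 averaged 7.40, 7.27 and 7.08. The means of Itga7 for numbers 1, 2 and 3 were 10.34, 10.60 and 10.67, those of Itga5 were 7.89, 8.09 and 8.23, and those of Itgb8 were 7.15, 7.14 and 7.43. Among the laminin receptor alpha chains, the mean of Itga3 was lowest in number 3 and that of Itga7 in number 1. The cultures also differed in differentiation genes. Myog, the differentiation factor myogenin, had 8.65, 8.33 and 6.85 in BMP6 replicates 1, 2 and 3 and 8.75, 7.94 and 7.03 in the vehicle replicates, and Myh3, embryonic myosin heavy chain, 8.88, 7.89 and 5.84 in BMP6 and 8.65, 7.89 and 5.86 in vehicle. Myod1 stood between 12.05 and 12.30 in all 6. The part of this difference in the values of the subunits was not tested. The arrays' column headers carry a code that is shared by the BMP6 and vehicle cultures of the same number, and the labels do not say what it stands for. By source name vehicle replicates 2 and 3 are from the same mouse, and Myh3 stood at 7.89 and 5.86 in them. The Myh3 value of vehicle replicate 3 lay close to that of BMP6 replicate 3, which the source name gives to another mouse. Which mouse a culture came from was not tested.

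**Figure D4:**
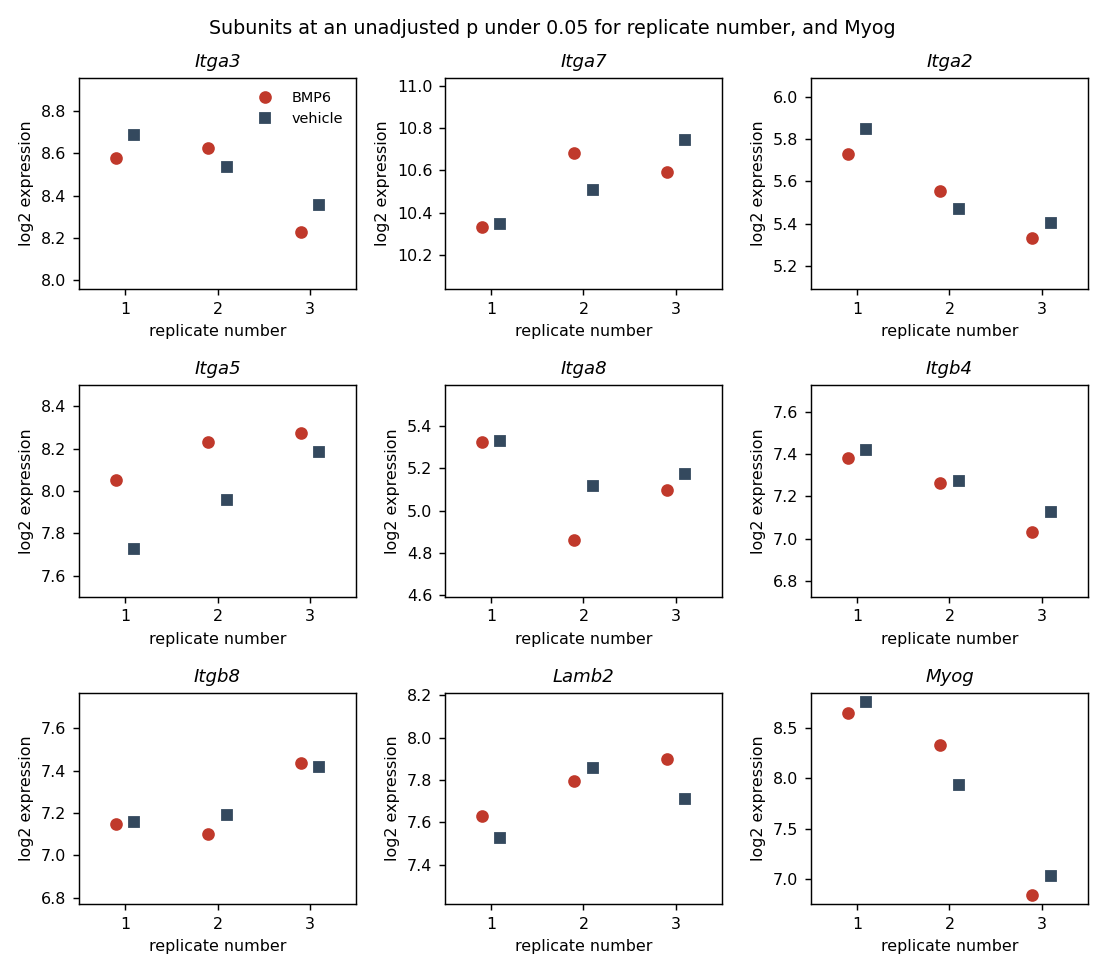
Log2 expression (vertical axes, each panel with its own range of at least 1 unit) of the 8 subunits at an unadjusted p under 0.05 for replicate number, and of Myog, by replicate number (horizontal axes). Red circles are BMP6 arrays and dark squares vehicle arrays, 1 of each per number. In both treatments Itga2, Itga3 and Itgb4 are lowest in number 3, as is Myog, while Itga5 and Itgb8 are highest there. The mean of Itga7 over both treatments is also highest in number 3.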

How the data were processed

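RNA of 6 cultures was labelled with an Affymetrix whole-transcript kit, per the labels' protocols, and measured on 1 array each. The deposited values are log2 expression per probe set, which the authors computed by RMA. The submitters' processing notes name the oligo package. For the software version, array type, annotation and genome build: not given in the sources used here. RMA scales arrays to each other and so can hide a change common to most transcripts. The deposited arrays still had medians from 6.02 to 6.10. Of 34760 probe sets 21893 had a symbol. The one with the highest mean was kept per gene, leaving 20163 genes. All 37 members matched RefSeq (GRCm38.p6) by Entrez ID with the same symbol. Olfactory receptors were found by their RefSeq symbols (Olfr), since the table uses newer names.

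The treatments were compared in limma (version 3.58.1, R 4.3.3; lmFit and eBayes, two-sided, Benjamini-Hochberg over 20163 genes, called under 0.05), with no covariate. Intervals are at 95%. The code was checked on simulated data. Arrays carry no depth, so their number limits the precision. Members, lists and tests were chosen with earlier results of these data known. Values per sample are given for members above the chemosensory level, at an unadjusted p under 0.05 with BMP6 or called by replicate number; the others are given by their mean or range, and for Itga1, chosen after its values were seen, by sample. Of each adhesion list the 4 genes with the lowest p are named. Ligands, receptors and markers named for context were chosen after their values were seen. Deviations of same-numbered cultures from their group means correlated at 0.31, 0.05 and 0.43 for numbers 1, 2 and 3. The source names put both cultures of numbers 1 and 2 in the same mouse, but not those of number 3. Alternatives changed the block, prior, probe set choice, scaling, table, dim genes and arrays used. The values of 1 member and of 1 other adhesion gene are not reported here.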

Additional observations from a re-analysis of the deposited data

How the results depend on the processing

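In none of the 16 alternatives was an integrin, laminin or other listed adhesion gene called with BMP6. The other deposited table held the same values (largest difference 4.999e-09), so that alternative could not differ. Averaging probe sets left the members' own values unchanged, since each had a single probe set. The lowest adjusted p of a member in any of the 16 was 0.717, without vehicle replicate 3. The median log2 fold change of the members ran from -0.0092 to 0.030. The count of members at an unadjusted p under 0.05, 0 as reported, was 2 with the replicate block and 2 with a random replicate block (Itga1 and Itga5 in both), 1 with arrays centred on their median and 2 without the third pair, an alternative chosen after seeing the data. Without 1 array it ran from 0 to 3, with Itga5, Itgax and Itgb2 passing when BMP6 replicate 1 was left out, Itga5 and Itgav when vehicle replicate 3 was, and Itga1 alone when BMP6 replicate 2 or vehicle replicate 1 was. With the replicate block, 1177 of all 20163 genes had an unadjusted limma p under 0.05, a share near that of 2 in 37 members. For the other alternatives this count over all genes was not taken. The 17 genes called in all became 29 with the replicate block, 32 with the random block, 30 without dim genes, 26 with an intensity trend in the prior and 27 with centred arrays. Without 1 array the count ran from 7 to 15, and it was 10 without BMP6 replicate 1, 7 without BMP6 replicate 2, and 9 without vehicle replicate 1 or vehicle replicate 2. For replicate number, the 79 genes called became 43 without treatment in the fit, 307 with the intensity trend, 663 without dim genes and 19 with replicates 1 and 2 only. Members called were 5 without dim genes and 0 in the other fits. The count of 19 members above the chemosensory level was 28 at the 95th percentile, 15 at the maximum, 17 with olfactory receptors alone and 22 with receptors found by the table's own symbols, the last chosen after seeing the data. The cause of these differences was not tested. Signal near the floor limits what can be said of the dim members.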

Other observations

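Replicate number was also tested for adhesion genes outside the integrin and laminin families. Nid1, nidogen 1, which joins laminin to collagen IV in basement membrane, had 8.84, 8.62 and 8.29 in BMP6 replicates 1, 2 and 3 and 8.89, 8.56 and 8.23 in the vehicle replicates, and was called in the limma F test of replicate number over all genes (adjusted p = 0.049). It was lowest in number 3, in both treatments, as were Itga3 and Itgb4. Tnc, tenascin-C, had 11.44, 10.93 and 11.03 in BMP6 and 11.45, 10.84 and 11.04 in vehicle and did not pass (limma adjusted p = 0.0575). Dag1 had 9.38, 9.59 and 9.64 in BMP6 and 9.32, 9.58 and 9.67 in vehicle, lowest in number 1 as was Itga7 (adjusted p = 0.258). In the same test 2 of the 105 genes were called, Nid1 among them, against 0.392% of all genes, and 19 of the 105 (18.1%) had an unadjusted p under 0.05, against 14.0% of all genes. These genes were chosen after their values were seen. Whether mouse, culture or degree of differentiation goes with them was not tested.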
